A study of Rattus norvegicus with 15 samples.

Results

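The contractile machinery of smooth muscle was followed through 10 genes: Acta2, Actg2, Tagln, Cnn1, Cnn2, Cnn3, Myl6, Myl9, Mylk and Smtn. They were chosen by symbol, all 10 had 1 row each, and the count table held 11574 genes. Counts were available for 15 cultures of H9c2, a myoblast line derived from rat heart and labelled wild type. Every title names H9c2, whereas the labels' cell line field gives H9c2 for T0 alone and a different, upward-numbered name for each later culture, and the titles were followed. Cells were grown in 10% serum, left to attach for 24 h and then moved to 1% serum, with or without daily all-trans retinoic acid (RA) at 1 µM. The groups were T0 (day 0, no RA), T7-RA and T14-RA (7 and 14 days, no RA) and T7+RA and T14+RA (7 and 14 days with RA), with 3 replicates each, described in the study as biological. RA was dissolved in DMSO, and whether cultures without RA received DMSO is not stated. T0 was 24 h after seeding, the end of attachment in 10% serum, and the later cultures were in low serum, so time in culture, serum withdrawal and cell density cannot be told apart here. In bulk RNA, fewer cells expressing a gene and less of its RNA per cell cannot be told apart either.

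Smooth muscle shortens when actin filaments slide past myosin whose regulatory light chain has been phosphorylated. Calcium bound to calmodulin activates myosin light chain kinase, while calponins, transgelin and smoothelin sit on the actin filament. Many of these genes are controlled by serum response factor, which binds the CArG box together with myocardin or a myocardin-related factor, and several are also active in fibroblasts, myofibroblasts and undifferentiated myoblasts. RA acts through nuclear receptors that bind DNA and change transcription.

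The libraries held between 508397 and 1030820 counts, and no replicate pair matched within sampling noise (the most alike pair, T14-RA 1 and 3, had a chi-square of 1.07 per gene). The T0 libraries differed most among themselves, at 2.06 to 3.09 per gene. Levels are given as CPM, the count divided by the TMM-scaled library size, and levels of different genes are compared only as CPM per kb of the transcript length deposited with the counts. The smooth muscle label of the gene set was not matched by a full smooth muscle profile. Myh11, the smooth muscle myosin heavy chain, had 98 counts over all 15 libraries and at most 10 in one. From T0 to T14-RA the mean of Lmod1, a leiomodin of smooth muscle, went from 261 to 99.6 CPM and that of Myocd from 99.2 to 51.2 CPM, while Synpo2 went from 62.8 to 119.7 CPM, Des from 5.72 to 40.3 CPM and Myh11 from 10.0 to 13.2 CPM. The summed level of 5 smooth muscle markers ran from 409 to 457 CPM in T0 and from 308 to 356 CPM in T14-RA, with T7-RA lower than both at 234 to 260.0 CPM. With RA it ran from 164 to 195 CPM at T7+RA and from 228 to 278 CPM at T14+RA, below the cultures of the same day without RA. The markers in this sum did not move together. From T7-RA to T14-RA, Synpo2 (65.1 to 119.7 CPM), Des (10.4 to 40.3 CPM) and Myh11 (7.8 to 13.2 CPM) rose. Lmod1 (110.0 to 99.6 CPM) and Myocd (56.9 to 51.2 CPM) fell. At day 14 the mean of Lmod1 was higher with RA (117.4 against 99.6 CPM), and the other means were lower. The myoblast markers Myod1 and Myog were present, Myod1 at a mean of 115 CPM in T0 and 80.2 CPM in T14-RA and Myog at 48.7 and 638 CPM. Of 5 myoblast markers 4 had a row, with Des in both lists, and their sum ran from 124 to 218 CPM in T0. It ran from 894 to 960.0 CPM in T14-RA and from 651 to 773 CPM in T14+RA. Chrna1 among them averaged 1.25 CPM in T0, 159.8 CPM in T14-RA and 26.2 CPM in T14+RA, and Myog 569.5 CPM in T14+RA. From T0 to T14-RA, Myog, Chrna1 and Des rose while Myod1 fell, so the sum does not measure how many cells were myoblasts. Of 6 cardiomyocyte markers only Gata4 had a row (132 counts in all). Of 5 fibroblast markers 3 had a row, and their sum, nearly all Col1a1, ran from 24296 to 37279 CPM in T0 and from 20154 to 20376 CPM in T14-RA. The other 2, Dcn and Lum, had 0 counts in T0 and averaged 50.5 and 28.5 CPM in T14-RA and 119.7 and 6.24 CPM in T14+RA. Of 4 endothelial markers only Tek had a row (25 counts), and none of 3 leukocyte markers had one. A missing row can stand for few counts or for an unmatched symbol, and Col1a2 had none beside 239165 counts of Col1a1. The part of these markers in the members' levels was not tested.

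Promoter sequence is shown for the 3 members in which a searched motif lay within the 150 bases before the annotated start, since these are the stretches where factors known to act on contractile genes could be looked for. RefSeq windows of 300 bases, from 250 before to 50 after the start, were found for 8 of the 10 members on the GRCr8 build. The counts were made on Rnor_6.0, so no coordinate was carried from one to the other. Tagln and Myl9 were not among the 8. The Acta2 stretch lies at chr1:241172504-241172653 on the minus strand, that of Cnn2 at chr7:10370313-10370462 on the minus strand and that of Mylk at chr11:79498575-79498724 on the minus strand. Capitals mark the motif matches, on either strand.
Acta2: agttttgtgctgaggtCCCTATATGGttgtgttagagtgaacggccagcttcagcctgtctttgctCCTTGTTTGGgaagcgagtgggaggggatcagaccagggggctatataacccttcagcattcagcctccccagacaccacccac
Cnn2: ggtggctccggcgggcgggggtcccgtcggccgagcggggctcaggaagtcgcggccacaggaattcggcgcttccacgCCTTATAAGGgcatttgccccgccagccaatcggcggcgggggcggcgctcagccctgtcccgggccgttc
Mylk: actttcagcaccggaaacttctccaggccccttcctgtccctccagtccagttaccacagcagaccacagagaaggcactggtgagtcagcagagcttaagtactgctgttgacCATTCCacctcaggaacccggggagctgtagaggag
The strict CArG box was found in 1 member window, that of Cnn2 (bases -71 to -62 before the start), and in 1.64% of all 33469 windows. When 1 central C or G was also allowed, a form chosen after the strict search had been seen, the Acta2 window had matches from -134 and from -84 and the Cnn2 match was kept, against 9.42% of all windows. CATTCC, the MCAT element bound by TEAD factors, was found in the windows of Acta2 (from -196, outside the printed stretch) and Mylk (from -36), and in 14.19% of all windows. AGGTCA, a core motif of nuclear receptors including those of RA, was found in none of the 8 member windows and in 16.2% of all. The MCAT and CArG letters do not overlap in these windows. A match describes letters only, and its absence says nothing about a factor. The Actg2 and Mylk windows lie within the annotated span of their own gene.

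Together the 10 genes made up 2.08% ± 0.180 of all counts in T0 (SD, n = 3), 0.839% ± 0.112 in T7-RA, 0.643% ± 0.0120 in T14-RA, 0.860% ± 0.0356 at T7+RA and 0.760% ± 0.0681 at T14+RA. All later libraries lay below the lowest T0 library, which was at 1.93%. Acta2 alone held 58.1% of the members' counts in T0 and 39.6% in T14-RA. Time effects were taken from an additive model with a T7, a T14 and an RA term, in which the T7 and T14 terms are the shifts from T0 after allowing for RA. In edgeR's quasi-likelihood test with Benjamini-Hochberg adjustment and a threshold of 0.001, 7 members were lowered and 0 raised for the T7 term, against 4.44% of all genes lowered and 4.29% raised. For the T14 term 8 were lowered and 0 raised, against 8.85% lowered and 8.47% raised. At an unadjusted p under 0.05 there were 8 members for T7 and 9 for T14, of which Mylk at T14 was the one above 0, and DESeq2, limma-voom and limma-trend also raised 0. The median log2 change of the members was -1.03 for T7 and -1.23 for T14, and that of all genes was 0.02 and 0.05. Without a composition factor in the library sizes, the medians of all genes became 0.13 and 0.15, and Mylk was also called raised for T14 (adjusted p = 0.000819). Leaving out each library in turn left 6 to 8 members lowered for T7 and 8 for T14, limma-trend lowered 6 for T7, and limma on quantile-normalized counts lowered 4 for T7 (losing Cnn2, Myl9 and Smtn) and 5 for T14 (losing Myl6, Myl9 and Smtn). For the RA term 2 members were raised (Myl9 and Mylk) and 2 lowered (Actg2 and Smtn), against 3.33% and 3.07% of all genes, and the median was 0.14, against -0.01 over all genes. The T7, T14 and RA terms share the T0 libraries or the RA cultures, and their values for the same gene are set side by side only.

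**Figure D1:**
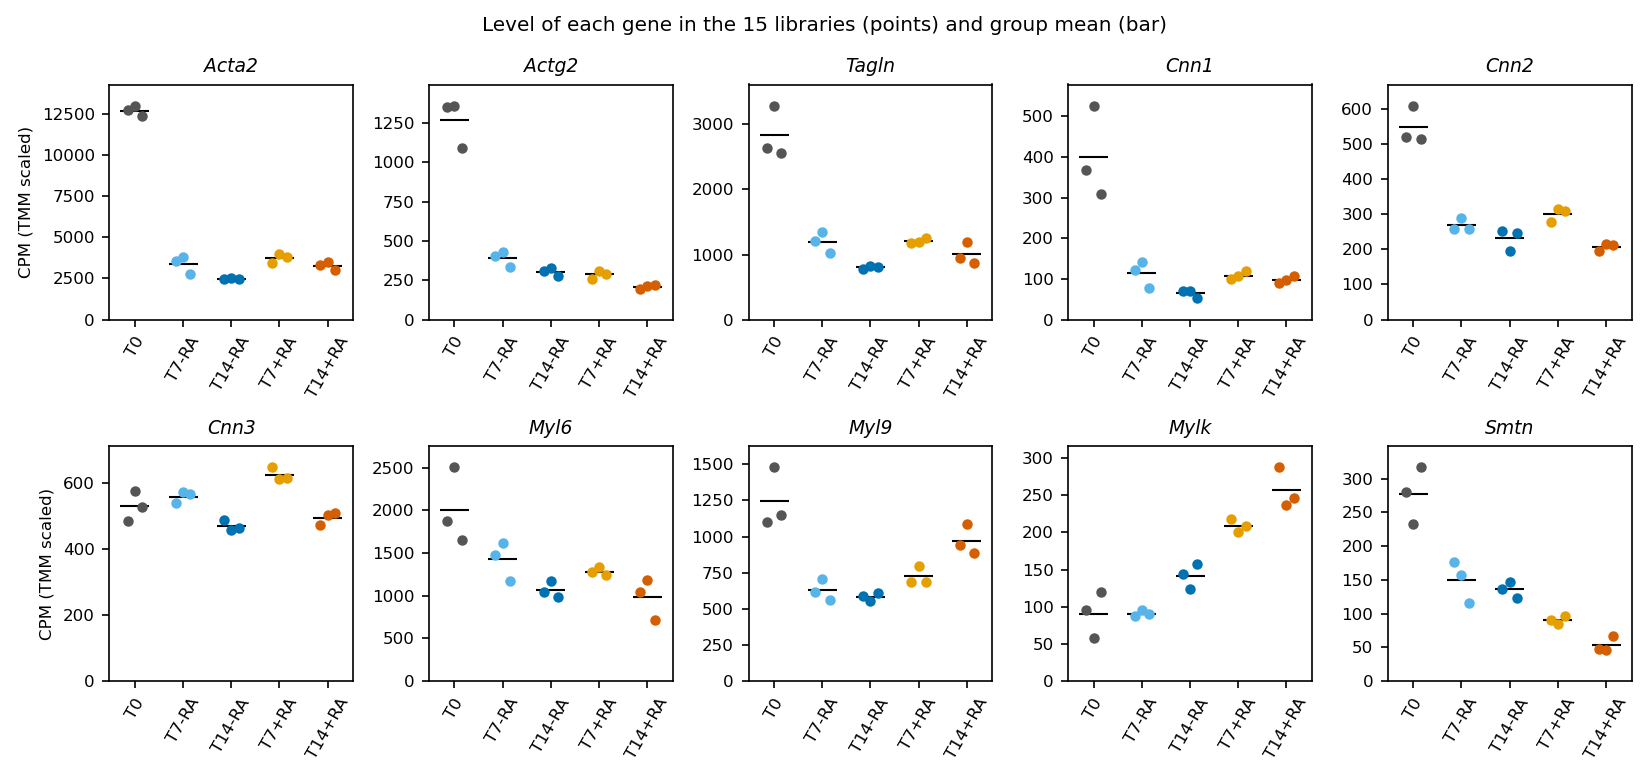
Level of each of the 10 genes (y axis, TMM-scaled CPM from 0, a separate scale for each gene) in the 15 libraries, with points for libraries and a bar for the mean of each group. T0 lies highest for 8 genes, Cnn3 stays between 459 and 647 CPM, and Mylk is highest in T14+RA, at 237 to 287.5 CPM.

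**Figure D2:**
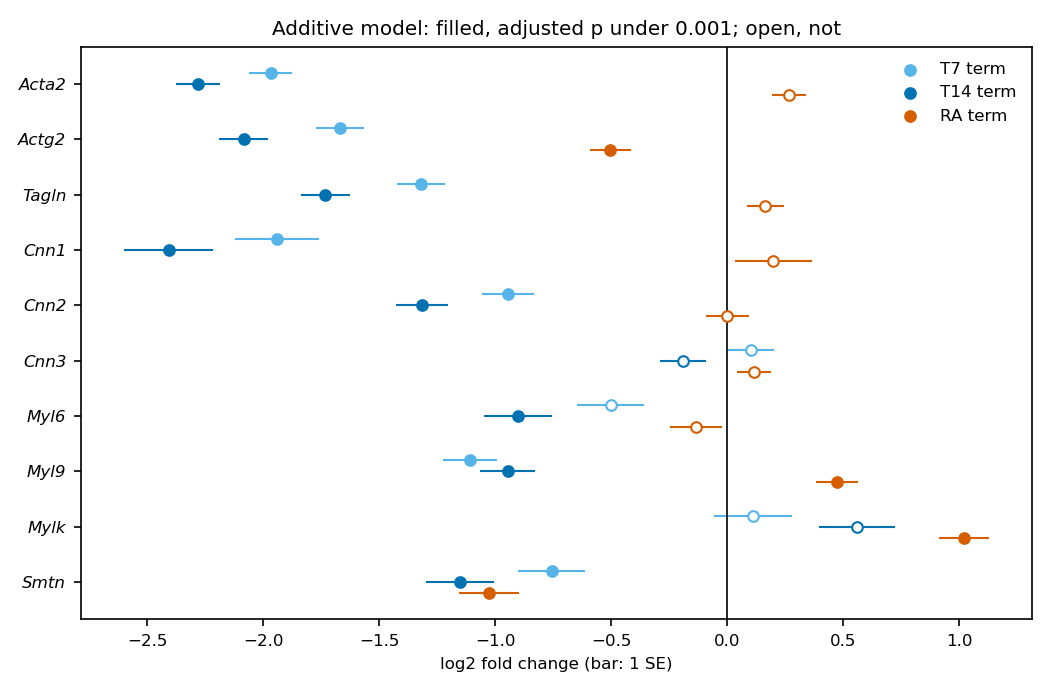
Log2 fold change of the T7, T14 and RA terms of the additive model for each gene (x axis, bars 1 SE), filled where the adjusted p was under 0.001. Filled T7 points lie left of 0 for 7 genes and filled T14 points for 8, while filled RA points lie on both sides.

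Acta2 encodes smooth muscle alpha-actin, the main actin of contractile smooth muscle and of myofibroblasts, and it ranked 5 among all genes by total count. The T0 libraries held 12716, 12990.5 and 12347 CPM. T7-RA held 3579, 3807 and 2749 CPM, and T14-RA held 2473, 2534.5 and 2486 CPM. The T0 values were more than 3 times the highest later value, and the T14-RA libraries were all below the T7-RA libraries. With RA, the levels were 3427, 3965.5 and 3824 CPM at T7+RA and 3328, 3497 and 2993 CPM at T14+RA. The RA libraries overlapped T7-RA at day 7 and lay wholly above T14-RA at day 14. The log2 change was -2.28 for the T14 term (SE 0.09, adjusted p = 1.45e-28), a 4.86-fold lower level. On quantile-normalized log2 counts, which hold the highest genes to a common value, this T14 change was -1.55. RA raised Acta2 at day 14 by 0.39 (SE 0.09, edgeR adjusted p = 0.000935), whereas the day 7 value was 0.15 (SE 0.09, adjusted p = 0.43). The day 14 call was lost in 10 of 15 fits that left out 1 library (all but those without T0 2, T0 3, T7-RA 2, T7-RA 3 or T14+RA 3), with an adjusted p of up to 0.0146, and in 6 alternative settings.

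Actg2, the enteric smooth muscle gamma-actin, is expressed above all in the gut wall. Its T0 levels were 1350.5, 1358 and 1092 CPM, and its T7-RA levels were 404, 433 and 337 CPM. T14-RA held 309.9, 329 and 276 CPM, below every T7-RA library. With RA, Actg2 was 261, 310.1 and 289.7 CPM at T7+RA and 192, 211 and 219 CPM at T14+RA, each set wholly below the cultures of the same day without RA. The T14 term was -2.08 (SE 0.11) and the RA term -0.50 (SE 0.09, adjusted p = 1.12e-05), while the RA change was -0.45 at day 7 (SE 0.11, adjusted p = 0.00527) and -0.57 at day 14 (SE 0.12, adjusted p = 0.000464). The day 14 call was lost when any of T14-RA 1, T14-RA 2, T14+RA 1 or T14+RA 2 was left out (adjusted p 0.00198 to 0.0139), and in DESeq2, limma-voom and limma-trend (adjusted p = 0.00109, 0.00191 and 0.00126). On quantile-normalized counts it was lost (limma adjusted p = 0.0209), as was that of the RA term (limma adjusted p = 0.00243). The RA term of Acta2 had the opposite sign, at 0.27 (SE 0.07, adjusted p = 0.00595), which did not pass 0.001 (0.000989 without T7-RA 2).

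The pair was also described as a ratio of counts within each library, which needs no library size, though reads shared between the near-identical coding sequences of actins could be split by the counting. The Acta2/Actg2 ratio averaged 10.1 ± 1.05 in T0 (SD, n = 3), 8.60 ± 0.384 in T7-RA, 8.23 ± 0.690 in T14-RA, and with RA 13.0 ± 0.222 at T7+RA and 15.9 ± 1.96 at T14+RA. The lowest ratio with RA was 12.8, and the highest without RA was 11.3. Ratios were formed for 5 pairs of the same family, chosen with these values known, so they are given as a description, and the p of a permutation test that was run on them is not used. On the log2 scale the mean Acta2/Actg2 ratio was higher with RA by 0.60 at day 7 and by 0.94 at day 14, in 6 of 6 RA libraries.

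**Figure D3:**
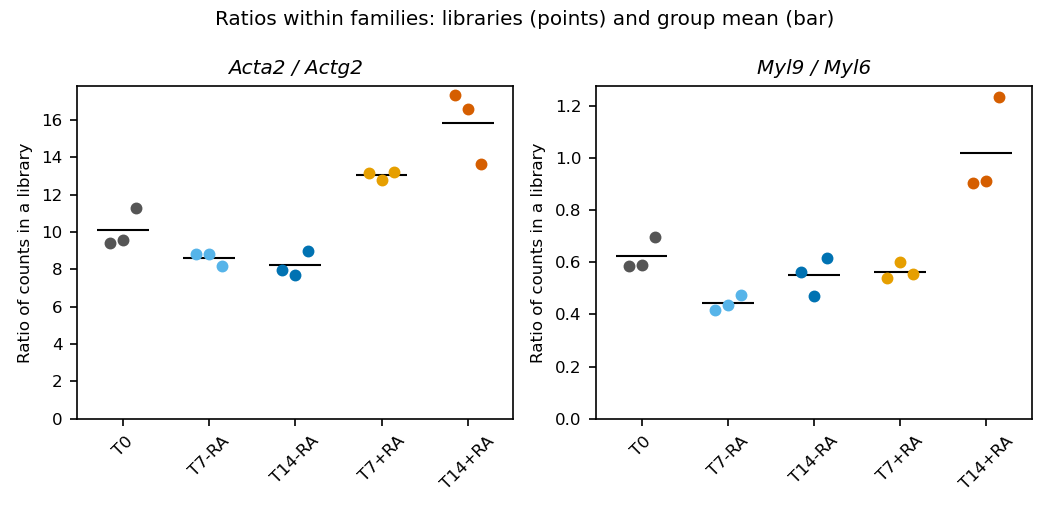
Ratio of Acta2 to Actg2 counts (left) and of Myl9 to Myl6 counts (right) in each library (y axes, no unit, from 0), with points for libraries and bars for group means. Acta2/Actg2 lies at 12.8 to 17.3 with RA and at 7.69 to 11.3 without, and Myl9/Myl6 in T14+RA (0.903 to 1.23) lies above every other group.

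Among the 6 actin genes, Acta2 accounted for 48.5% ± 0.404 of the summed level per kb in T0, 31.2% ± 2.11 at T7-RA and 22.9% ± 0.646 at T14-RA. Its share with RA was 33.9% ± 0.413 at T7+RA and 32.0% ± 0.593 at T14+RA. Acta1, the skeletal muscle actin, held 0.154% in T0, 28.9% in T14-RA and 15.8% in T14+RA. The smooth muscle actins Acta2 and Actg2 together held 53.2% in T0, 25.6% in T14-RA and 34.0% in T14+RA, and the striated actins Acta1 and Actc1 held 0.166%, 31.0% and 16.1%. Shares sum to a whole, so a higher share of one actin is by construction a lower share of the rest. In absolute terms per kb, Actb, the cytoplasmic beta-actin, was 7948 ± 113 CPM per kb in T0 and 3133 ± 61.7 in T14-RA, while Acta2 was 9119 ± 232 and 1796 ± 23.3. Acta2 was the more abundant of these in T0, and Actb in every later group.

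**Figure D4:**
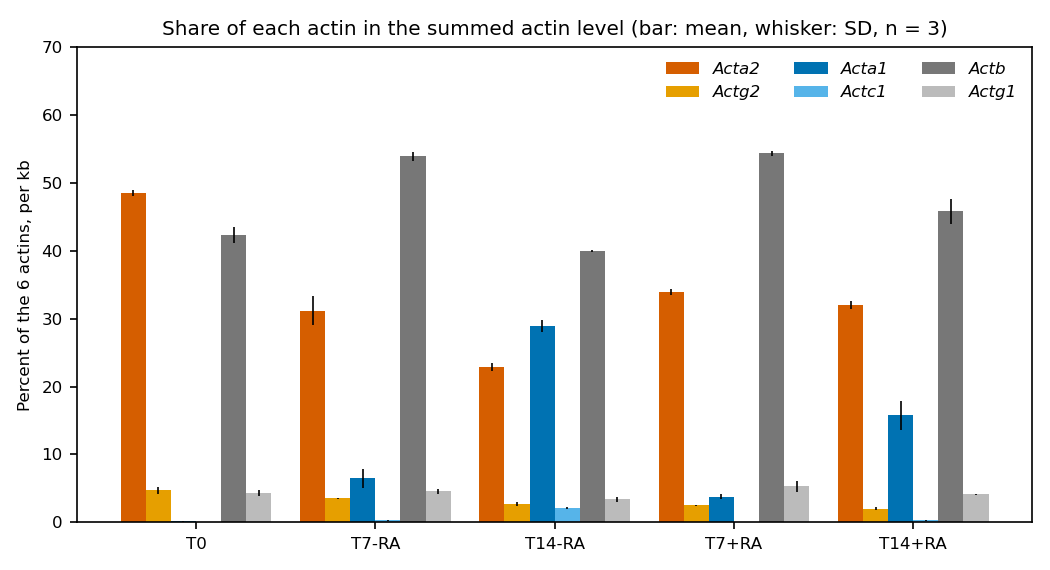
Share of each of 6 actin genes in their summed level per kb (y axis, percent; bars group means, whiskers SD, n = 3) in the 5 groups. The Acta2 bar stands at 48.5% in T0, 22.9% in T14-RA and 32.0% in T14+RA, and the Acta1 bar is highest in T14-RA at 28.9%.

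Tagln encodes transgelin (SM22-alpha), an actin-binding protein of smooth muscle and mesenchymal cells. Its levels were 2638, 3283 and 2566 CPM in T0, 1202, 1345 and 1022.5 CPM in T7-RA and 779.5, 827 and 811 CPM in T14-RA. The 3 groups did not overlap, and each later group was lower. Without RA, T14-RA was lower than T7-RA by a log2 change of -0.56 (SE 0.10, adjusted p = 6.47e-05). Between those days 2 members were lowered, Acta2 (-0.44, SE 0.09, edgeR adjusted p = 0.000296) and Tagln, against 1.09% of all genes. By edgeR, DESeq2, limma-voom and limma-trend 0 members were raised, against 1.87% of all genes by edgeR, and 7 were at an unadjusted p under 0.05 in either direction. The Acta2 call was also lost in DESeq2 (adjusted p = 0.00106) and limma-trend (adjusted p = 0.00416), and both calls on quantile-normalized counts (limma adjusted p = 0.133 and 0.132). Both calls depended on the libraries used, since Acta2 was lost without T0 1, T7-RA 1, T7-RA 2 or any T14-RA library (adjusted p up to 0.0213) and Tagln without T7-RA 1, T7-RA 2 or T14-RA 1 (up to 0.00443). The levels with RA were 1179, 1193 and 1251 CPM at T7+RA and 950.2, 1186.5 and 872 CPM at T14+RA. T14+RA lay above T14-RA, but its RA change of 0.32 (SE 0.10, adjusted p = 0.0363) did not pass 0.001. That change was 0.19 without T14+RA 2 (adjusted p = 0.385) and 0.13 on quantile-normalized counts (limma adjusted p = 0.743).

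The calponins bind actin and damp the myosin ATPase. Cnn1, calponin 1, is the smooth muscle form, and Cnn2 and Cnn3 are found in many cell types. Cnn1 held 368, 525 and 308 CPM in T0, 122, 142 and 78.4 CPM in T7-RA and 69.7, 70.8 and 52.5 CPM in T14-RA, with no overlap between these groups. Its T14 term, -2.41 (SE 0.19, adjusted p = 1.14e-10), was the lowest of the 10 point estimates, although its standard error spans the value of Acta2. T7+RA held 99.8, 106 and 118 CPM and T14+RA 89.7, 97.4 and 107 CPM. The latter lay above T14-RA, yet the RA change at day 14 of 0.58 (SE 0.22, adjusted p = 0.0918) did not pass, and the T14-RA libraries rested on 31 to 58 counts each.

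Cnn2 held 519, 608 and 514 CPM in T0, 258, 289 and 257 CPM in T7-RA and 253, 197 and 247 CPM in T14-RA. It was lowered for both time terms (T7 -0.95, SE 0.11; T14 -1.32, SE 0.11), and its RA term was 0.00 (SE 0.09, adjusted p = 0.999). Cnn3 ran from 486 to 574 CPM in T0, from 538 to 574 in T7-RA, from 459 to 488 in T14-RA, from 612 to 647 in T7+RA and from 474 to 508 in T14+RA. T7+RA was the highest group and overlapped none of the other four, but no Cnn3 comparison passed the threshold: its changes were 0.10 for T7 (SE 0.10), -0.19 for T14 (SE 0.10) and 0.12 for RA (SE 0.07). Per kb, Cnn1 and Cnn3 overlapped in T0 (267 and 266 CPM per kb), whereas in T14-RA Cnn3 was at 236 and Cnn1 at 42.9. The Cnn1/Cnn2 count ratio was lower with RA by a log2 difference of -0.20 at day 7, where the groups overlapped (0.305 to 0.493 without RA, 0.338 to 0.381 with RA), and higher by 0.78 at day 14, where they did not (0.212 to 0.360 without, 0.456 to 0.504 with). Cnn1/Cnn3 differed by -0.20 and 0.54, again without overlap at day 14 alone, and Cnn2/Cnn3 by 0.00 and -0.24, likewise.

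Myl9 encodes the regulatory light chain of smooth muscle myosin, whose phosphorylation starts contraction. Its levels were 1098, 1478 and 1151 CPM in T0, 618, 709.6 and 558 CPM in T7-RA and 589.8, 551 and 609.6 CPM in T14-RA. With RA they were 688.5, 799 and 689 CPM at T7+RA and 941.5, 1086 and 888 CPM at T14+RA. T14+RA lay above T14-RA, T7-RA and T7+RA and below T0. The RA term was 0.47 (SE 0.09, adjusted p = 0.000104), made up of 0.21 at day 7 (SE 0.11, adjusted p = 0.3) and 0.74 at day 14 (SE 0.11, adjusted p = 1.53e-07), a 1.67-fold higher level. On quantile-normalized counts the calls for the RA term and for day 14 were lost (limma adjusted p = 0.0592 and 0.0318). Day 14 minus day 7 was 0.53 (SE 0.15) and did not pass at 0.05 (adjusted p = 0.0862). It did pass without T0 2 (adjusted p = 0.0197) and without T14+RA 3 (adjusted p = 0.0486). With the replicate number as a block in edgeR it passed too (adjusted p = 0.0166).

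Myl6, the essential light chain shared by smooth muscle and nonmuscle myosin, held 1871, 2505 and 1656 CPM in T0, 1483, 1623 and 1176.5 CPM in T7-RA and 1047, 1174 and 989 CPM in T14-RA. Its T14 term was -0.90 (SE 0.15, adjusted p = 4.46e-05) and its T7 term -0.50 (SE 0.15, adjusted p = 0.0155), the latter short of 0.001. Myl6 ran from 1243 to 1332 CPM in T7+RA and was 1043, 1189.7 and 719.7 CPM in T14+RA, and T14+RA 3 was the lowest of all 15. The T7 change passed without T14+RA 3 (adjusted p = 0.000298) and was -0.31 without T0 2 (adjusted p = 0.107), and the T14 change did not pass when only cultures without RA were set against T0 (adjusted p = 0.00273). The Myl9/Myl6 count ratio averaged 0.624 ± 0.0614 in T0, 0.443 ± 0.0291 in T7-RA, 0.550 ± 0.0746 in T14-RA, 0.564 ± 0.0318 at T7+RA and 1.02 ± 0.189 at T14+RA. It was higher with RA by 0.35 at day 7 and 0.88 at day 14 on the log2 scale, in 6 of 6 libraries against the same day. Per kb, Myl6 and Myl9 overlapped in T0, Myl6 was higher in T7-RA, T14-RA and T7+RA, and Myl9 was higher in T14+RA, at 880 against 591 CPM per kb.

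Mylk encodes myosin light chain kinase, which phosphorylates the regulatory light chain. It held 95.2, 58.2 and 119.5 CPM in T0, from 31 to 69 counts, and 87.1, 95.4 and 90.0 CPM in T7-RA. T14-RA held 144, 124 and 157.5 CPM, T7+RA 218, 200 and 209 CPM and T14+RA 287.5, 237 and 247 CPM. From T7-RA upwards these 4 groups did not overlap, rising in the order T7-RA, T14-RA, then T7+RA, then T14+RA. The RA term was 1.02 (SE 0.11, adjusted p = 1.73e-11). By day, RA raised Mylk by 1.20 at day 7 (SE 0.15, adjusted p = 4.5e-09) and by 0.87 at day 14 (SE 0.14, adjusted p = 1.83e-06), and the difference of -0.33 (SE 0.21) did not pass (adjusted p = 0.719). On quantile-normalized counts the calls at day 7 and day 14 were lost, with changes of 1.16 and 0.83 (limma adjusted p = 0.00561 and 0.0301). The T14 term of 0.56 (SE 0.17, adjusted p = 0.00556) missed 0.001. It passed without T0 3 (0.77, adjusted p = 0.000657) and was 0.35 without T0 2 (adjusted p = 0.0957). The gene gives rise to a long and a short kinase and to telokin, and a gene count does not separate them.

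Smtn encodes smoothelin, a cytoskeletal protein regarded as a marker of contractile smooth muscle. It held 280.0, 233 and 316.5 CPM in T0, 176.5, 157 and 116 CPM in T7-RA and 137, 147 and 124 CPM in T14-RA. T7+RA held 89.8, 84.6 and 96.0 CPM and T14+RA 47.3, 45.6 and 67.1 CPM, so that at each day every RA library lay below every library without RA. Smtn was lowered for T7 (-0.76, SE 0.14), T14 (-1.15, SE 0.15) and RA (-1.03, SE 0.13, adjusted p = 4.61e-09). The T7 call was lost without T0 3 (adjusted p = 0.00102) or T7-RA 3 (adjusted p = 0.00179), in limma-trend (adjusted p = 0.00187) and on quantile-normalized counts (limma adjusted p = 0.0423). The RA change was -0.75 at day 7 (SE 0.16, adjusted p = 0.000548) and -1.38 at day 14 (SE 0.18, adjusted p = 1.29e-08), a 2.61-fold lower level, with 29 to 49 counts in each T14+RA library. The day 7 call was lost without T7-RA 1, T7-RA 2, T14-RA 3 or any T7+RA library (adjusted p up to 0.0284) and in DESeq2, limma-voom and limma-trend, where the adjusted p was 0.00398, 0.00292 and 0.00586, and on quantile-normalized counts (limma adjusted p = 0.0505). Day 14 minus day 7 was -0.63 (SE 0.25, adjusted p = 0.371).

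Mylk and Smtn thus changed in opposite directions with RA. Per kb, Smtn stood at 83.6 and Mylk at 11.4 CPM per kb in T0, their ranges overlapped in T7+RA (27.3 and 26.3), and in T14+RA Mylk was above Smtn (32.3 and 16.1). By day, 1 member was raised (Mylk) and 1 lowered (Smtn) at day 7, against 1.87% and 1.30% of all genes. At day 14, 3 were raised (Acta2, Myl9 and Mylk) and 2 lowered (Actg2 and Smtn), against 2.46% and 2.35%. The difference between the days passed 0.05 in 0 of 10 members by edgeR, in 0 by DESeq2, limma-voom and limma-trend, and in 0.743% of all genes, with 5 members at an unadjusted p under 0.05. With the replicate number as a block, Myl9 passed in edgeR. By range, T14+RA lay wholly above T14-RA for 5 members and below for 2 (13.4% and 13.9% of all genes), and T7+RA above T7-RA for 2 and below for 2 (11.8% and 12.6%). From T0 to T7-RA, 8 members lay wholly lower (15.8% of all genes) and 0 higher (17.5%).

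**Figure D5:**
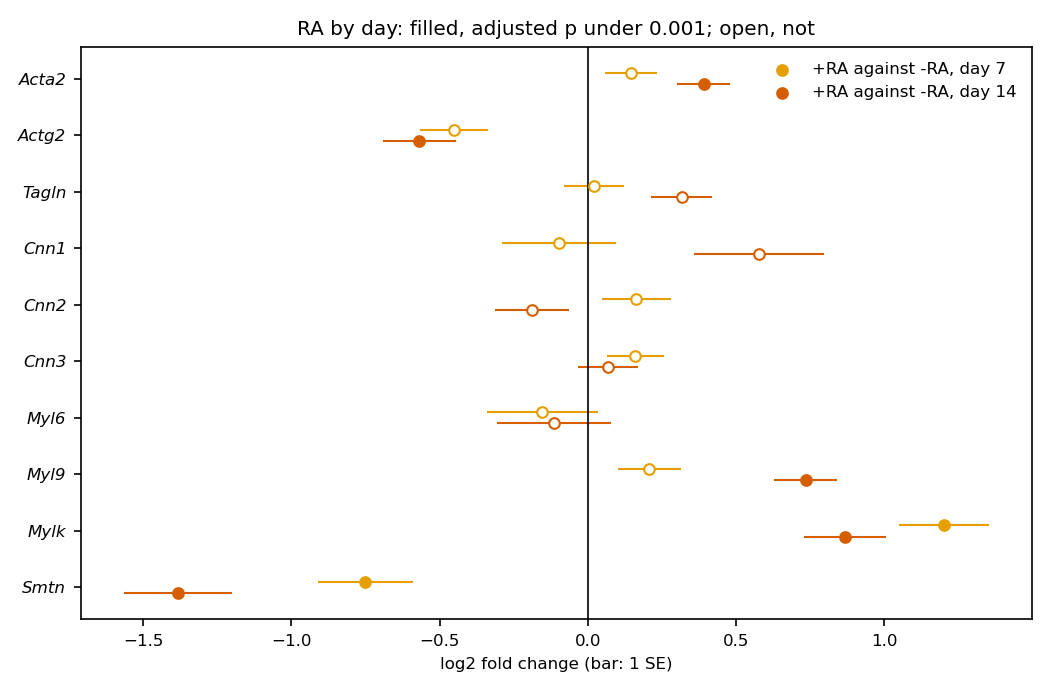
Log2 fold change of +RA against -RA at day 7 and at day 14 for each gene (x axis, bars 1 SE), filled where the adjusted p was under 0.001. Mylk lies right of 0 and Smtn left of 0 at both days, and Acta2, Myl9 and Actg2 are filled at day 14 only, a difference between days that did not pass for any of them.

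By level per kb, Acta2 was first and Tagln next in all 5 groups, and Tagln overlapped the gene below it in T7-RA and T14+RA. Myl6 and Myl9 came next in all 5 groups. Actg2 stood above Cnn2 and Cnn3 in T0, at 892 CPM per kb with a range overlapping that of Cnn2. Its mean was below both in every later group. It was 275.6 and 214.9 CPM per kb in T7-RA and T14-RA, overlapping Cnn3 but not Cnn2. In T7+RA and T14+RA it was 202 and 146 CPM per kb, without overlap.

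Likeness of profile was measured as the root mean square difference of centred log2 CPM over the 15 libraries, among 3221 genes with a mean of at least 50 counts, and is a description. Acta2 and Cnn1 were each other's nearest member, at 0.221 on the log2 scale. Outside the members, the 3 genes nearest to Acta2 were Tpst2 (0.252), Ccn1 (0.260) and Cyp1b1 (0.272), and the same 3 were nearest to Cnn1, at 0.327 to 0.379. Tagln was nearest to Actg1 (0.137), Cnn2 to Myo1c (0.132), Cnn3 to Tmed2 (0.0956) and Myl6 to Cfl1 (0.151). Actg2 was nearest to Thbs1 (0.213) and Smtn to Vim (0.254). Mylk was nearest to Ehd4 (0.209) and Filip1l (0.2202), and its nearest member, Cnn3, was at 0.670, further than for any of the other nine. Myl9 was nearest to Mthfd2 (0.195).

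The lists of related genes below were described by edgeR calls at 0.001 and by their medians, and were chosen with earlier results of these data known. Of all genes, 4.29% were raised and 4.44% lowered for T7, 8.47% and 8.85% for T14, and 3.33% and 3.07% for RA, with medians of 0.02, 0.05 and -0.01. Upstream of the members, 11 of 12 listed transcriptional regulators had a row. For T7 and for T14, 1 was raised and 2 were lowered, and for RA 4 were lowered, with medians of 0.04, 0.12 and -0.37. For RA 0 regulators were raised by edgeR, DESeq2, limma-voom or limma-trend, also at an unadjusted p under 0.05. Myocd, the smooth muscle and cardiac cofactor of serum response factor, was lower for T14 by a log2 change of -1.03 (SE 0.21) and for RA by -1.002 (SE 0.19, adjusted p = 3.95e-05). Mrtfa, the actin-sensing cofactor, was lower for T14 (-1.03, SE 0.14) and gave -0.37 for RA (SE 0.11, adjusted p = 0.02). Klf4, which represses smooth muscle genes, was lower with RA (-2.50, SE 0.21, adjusted p = 1.1e-14). Mef2a, a muscle transcription factor, was higher for T14 (1.52, SE 0.18) and lower with RA (-0.997, SE 0.13).

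Of 10 other listed targets of serum response factor, 9 had a row. For T7, 1 was raised and 4 were lowered, for T14, 1 was raised and 5 were lowered, and for RA 3 were raised, with medians of -0.68, -0.74 and 0.28. For RA 0 were lowered by edgeR, DESeq2, limma-voom or limma-trend, also at an unadjusted p under 0.05. Ccn1 and Ccn2, matricellular proteins, were lower for T14 (-2.92, SE 0.11, and -1.84, SE 0.11) and higher with RA (0.58, SE 0.09, and 0.58, SE 0.09). Tgfb1i1, a focal adhesion adaptor, and Ier2, an immediate early gene, were lower for T14 (-1.24, SE 0.11, and -1.20, SE 0.25).

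Around the light chain, 13 of 20 listed genes that act on its phosphorylation had a row, Calm2 in 2 copies. For T7, 1 was raised and 2 were lowered, for T14, 1 was raised and 4 were lowered, and for RA 1 was raised and 1 lowered, with medians of -0.09, -0.26 and 0.09. Ppp1cb, a catalytic subunit of myosin phosphatase, was higher for T14 (1.08, SE 0.13, edgeR adjusted p = 6.21e-10), and Ppp1r12c, a phosphatase targeting subunit, was lower (-0.82, SE 0.19). Rnd3, an atypical small GTPase, was lower with RA (-1.09, SE 0.10, adjusted p = 7.81e-13).

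Of 24 other cytoskeletal and contractile genes, 22 had a row. For T7, 13 were lowered, for T14, 4 were raised and 12 lowered, and for RA 3 were raised and 4 lowered, with medians of -0.60, -0.89 and -0.17. Flna and Actn1, actin crosslinkers, were lower for T14 (-1.70, SE 0.09, and -1.69, SE 0.10), and Des, the muscle intermediate filament, was higher (2.61, SE 0.40), from a mean of 5.72 CPM in T0. Fhl2, a LIM protein, was higher with RA (1.78, SE 0.13, adjusted p = 4.28e-17). Of 5 nonmuscle myosin genes with a row, out of 6 listed, 0 passed for T7, T14 or RA by edgeR, DESeq2, limma-voom or limma-trend. At an unadjusted p under 0.05, edgeR had 1 of them for T7, 3 for T14 and 2 for RA. Their standard errors for T14 ran from 0.10 to 1.95, so the lack of calls does not show that their levels held. Actb and Actg1, the cytoplasmic actins, were both lowered for T7 and T14 (T14 -1.33, SE 0.09, and -1.62, SE 0.11), and for RA neither passed by any of these tools, with 1 at an unadjusted p under 0.05.

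Of 7 listed striated actins and light chains, 5 had a row, 4 were raised for T7, all 5 were raised for T14 and all 5 were lowered for RA, with medians of 4.29, 6.52 and -1.57. Members called for T7 and T14 were all lowered, whereas for RA they were split, with Actg2 and Smtn also lowered. Acta1 changed by 6.18 for T14 (SE 0.16, adjusted p = 7.14e-39) and by -0.86 for RA (SE 0.08, adjusted p = 5.52e-13). At day 14 with RA, Acta1 was thus lower (-0.98, SE 0.10, adjusted p = 1.53e-12) in the libraries in which Acta2 was higher.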

How the data were processed

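RNA from 15 H9c2 cultures was sequenced as paired-end reads after a stranded mRNA preparation. The authors' processing used HISAT2 for mapping (build Rnor_6.0, per the submitters' processing notes) after trimming, and featureCounts for counting. The authors deposited raw counts per gene for those summing to more than 20 over all libraries, beside a gene annotation with transcript lengths. Which annotation release and which strand option featureCounts was given is not given in the sources used here. Where strand was not used, overlapping genes cannot be separated.

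Samples were grouped and numbered by their labels. In R 4.3.3, edgeR 4.0.16 (TMM, robust quasi-likelihood fit, Benjamini-Hochberg over 11574 genes) was fitted to all 15 libraries, once with additive terms for T7, T14 and RA after the study's formula and once with 5 group means for contrasts within a day. The term b of that formula, which the paper does not define, was taken as the intercept. Calls used an adjusted p under 0.001, and 0.05 for the difference between days. The common biological coefficient of variation was 9.81%, and the members with the fewest counts, Cnn1, Mylk and Smtn, held 29 to 298 per library. The members, lists and count ratios were chosen with earlier results of these data known. Members were named in full, and from each other list at most 4 genes called in any term with the largest change. A gene of the phosphorylation list that this rule names is not reported here. Profile neighbours were the 3 nearest genes with a mean of at least 50 counts. Same-numbered libraries of different groups had a mean r of 0.0321 over 30 pairs (-0.0394 to 0.186), against -0.016 over 60 others, and not every pair was over 0.1, so the numbers were not taken as pairs. Alternatives were DESeq2 1.42.0, limma 3.58.1 (voom, trend and quantile-normalized), other scalings, filters and thresholds, the block and each library left out. Scripts were tested on simulated data.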

Additional observations from a re-analysis of the deposited data

How the results depend on the processing

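Of the member results taken under each alternative, 1664 kept their direction and side of the threshold, 62 fell short of it, 21 newly passed and 23 changed sign, and causes were not tested. The alternatives include the main fit at a moved threshold (0.05, or 0.001 for the difference between days). That entry cannot change a sign, and at 0.05 it can only add calls. With limma on quantile-normalized counts, members lowered fell to 4 for T7, 5 for T14, 1 for RA, 0 for T14-RA against T7-RA, 0 for RA at day 7 and 1 for RA at day 14, and members raised to 1 for RA, 0 at day 7 and 0 at day 14. Library size only gave 1 member raised for T14. At an adjusted p under 0.05, 1 was raised for T14, and 1 raised and 4 lowered for T14-RA against T7-RA, and 2 were lowered by RA at day 7. DESeq2 and limma-trend each lowered 1 member for T14-RA against T7-RA, 0 for RA at day 7 and 1 at day 14, and limma-voom lowered 0 at day 7 and 1 at day 14. The Cnn2 RA term, 0.00, became -0.0518 (quantile), -0.0237 (library size only), -0.00967 (at least 10 counts) and -0.00108 (replicate block), Tagln for RA at day 7 became -0.108 (quantile) and -0.00971 (library size only), Cnn3 for RA at day 14 became -0.0197 (quantile), and the Myl6 difference between days became -0.00827 (limma-trend) and -0.0257 (quantile).

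Leaving out each library in turn, members raised ranged from 0 to 1 for T14, from 0 to 1 for T14-RA against T7-RA and from 0 to 1 for the difference between days, and members lowered from 0 to 3 for T14-RA against T7-RA, from 0 to 1 for RA at day 7 and from 1 to 2 at day 14. The libraries whose omission raised Mylk past the threshold were T0 3 (T14) and T0 2 (T14-RA against T7-RA), and Cnn1 passed for the latter without T0 2 or T7-RA 3 (edgeR adjusted p = 0.000335 and 0.000181). Ranges that crossed 0 were -0.101 to 0.316 for Mylk at T7, -0.0374 to 0.059 for the Cnn2 RA term, -0.0657 to 0.117 for Tagln and -0.279 to 0.0846 for Cnn1 under RA at day 7, and -0.257 to 0.0597 for Myl6 under RA at day 14 with -0.118 to 0.20 for its difference between days.

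With the replicate number as a block, members lowered for T14-RA against T7-RA became 4 (adding Cnn1, adjusted p = 0.000566, and Myl6, adjusted p = 0.000367, in edgeR), and 1 member passed for the difference between days (Myl9, 0.52, adjusted p = 0.0166). The replicate block also lowered Myl6 for T7, 8 members in all, and changed no other member call. The labels tie the numbers to no shared batch, and 8 of 15 libraries correlated best with their own number, a hint from the data and not from the design. Counts per library were lowest for Smtn in T14+RA (29 to 49), Cnn1 in T14-RA (31 to 58) and Mylk in T0 (31 to 69), but standard errors did not follow depth alone: for RA at day 7 that of Myl6 was 0.19 and that of Mylk 0.15.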
